A study of Homo sapiens with 8 samples.

Results

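DEAD-box and DEAH-box helicases were followed in IGROV-1 tumor cells taken from mice treated with CpG-ODN or saline. The genes were those whose platform symbol is DDX or DHX, digits and at most 1 letter, without the antiviral sensors DDX58, DDX60 and DHX58. The array carried 50 such genes on 79 probes, of 18852 named genes in all. Probes were kept if 4 or more of the 8 arrays gave a detection p-value under 0.05, and the brightest kept probe stood for each gene. This left 44 helicase genes on 65 kept probes, among 11023 measured genes on the array.

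IGROV-1 is an established human ovarian carcinoma line, here adapted to grow in the mouse peritoneal cavity and carried on by serial passage of ascitic cells, so both groups hold cells of 1 line. The CpG-ODN group (4 arrays) came from mice given ODN1826, a phosphorothioate DNA oligomer whose unmethylated CpG motifs are sensed by Toll-like receptor 9, at 20 µg per mouse into the peritoneal cavity. The saline group (4 arrays) came from mice given saline. Treatment began 10 to 11 days after the cells were injected, and cells adhering to the peritoneal wall were taken 24 hours after the last dose. The series text names a course of 3 consecutive days and one of 1 dose without saying which arrays had which, so these were not separated. Strain, age and immune status of the mice are not given in the sources used here.

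DEAD-box and DEAH-box proteins, named for the amino acids of a conserved motif that binds ATP, use ATP to open short RNA duplexes or to strip proteins from RNA. DEAD-box members mostly act locally on a duplex, whereas many DEAH-box members move along a strand and are switched on by partner proteins that carry a G-patch. They work at each stage in the life of an RNA: spliceosome remodelling, ribosome assembly in the nucleolus, export, translation, decay and the handling of mitochondrial transcripts. Most are expressed in all dividing cells, and a few are restricted to the germ line.

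The arrays were of comparable brightness, with a mean raw signal of 806 to 1073 with CpG-ODN and 876 to 1079 in saline. Probes above background numbered 18425 to 18570 with CpG-ODN and 18784 to 20114 in saline, so every saline array had more than every CpG-ODN array. Carcinoma markers were present in both groups: 9 of 10 were measured. By the brightest probe of each, KRT18 passed (higher, 0.75) and the other 8 did not, but the second KRT18 probe did not pass (0.49) and another PAX8 probe did (0.90, against -0.10 for its brightest). The mean level of the list was 11.89 to 11.96 with CpG-ODN and 11.88 to 11.97 in saline on the log2 scale. Markers of other cells were measured unevenly on this human array. Of 8 macrophage markers 3 were measured, of which CD14 and CD68 rose and AIF1 fell, and 3 were not above background on any array. CD14 was above background on 3 of 4 CpG-ODN and 1 of 4 saline arrays, with overlapping groups, and the 2 other kept probes of CD68 did not pass (0.85 and 0.38). The mean level of the measured ones was 9.17 to 9.31 with CpG-ODN and 8.95 to 9.40 in saline. Of 6 endothelial markers 3 were measured, of which VWF and CDH5 rose, and their mean level was 7.59 to 7.86 with CpG-ODN and 6.81 to 7.15 in saline. Of 7 lymphocyte markers on the array 0 were measured, of 8 fibroblast markers 4 were measured with 1 lower, and of 5 mesothelial markers 4 were measured with 1 higher and 1 lower. MSLN, placed here in the mesothelial list, had a mean level of 12.99 with CpG-ODN and 13.01 in saline. Of 6 neutrophil markers 2 were measured and neither passed. S100A9 among them had a mean level of 10.16 with CpG-ODN and 10.10 in saline. Host cells here are of the mouse, while the array is human, and which cells gave these marker signals was not tested. The part of host cells in the helicase results was not tested.

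Nearly the whole family was expressed. Of the 50 genes 44 were measured (88%), against 58.5% of all named genes, and 43 of the 44 were above background on all 8 arrays. The 6 genes that were not measured were DDX3Y, DDX4, DDX25, DDX43, DDX53 and DHX57. DDX4, DDX25, DDX43 and DDX53 are genes of the germ line or testis. The 8 probes of these 6 genes were above background on no array in 6 cases and on 1 array in the other 2 cases.

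After CpG-ODN, 10 of the 44 genes passed an adjusted p of 0.05 in limma (22.7%), against 29.2% of all measured genes. Higher levels were called for 3 genes (DDX20, DDX28 and DDX19B), where 12.9% of all genes were higher. Lower levels were called for 7 genes (DDX17, DDX52, DHX34, DHX36, DDX54, DHX16 and DDX50), where 16.3% of all genes were lower. In tumor tissue measured in bulk, fewer cells of a type and less RNA per cell cannot be told apart.

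Most fitted changes were small. The median log2 fold change (CpG-ODN minus saline throughout) was -0.14 over the 44 genes and -0.0070 over all genes. The sign of that median depended on the scaling, since it was 0.020 beside 0.073 for all genes when arrays were scaled to the median of probes detected on all arrays. At least a 2-fold change was fitted for 2 of the 44 genes (4.55%) and for 6.01% of all genes. For 39 of the 44 (88.6%) the 95% interval lay wholly inside a 2-fold change in either direction, against 80.4% of all genes. For 23 of the 44 (52.3%) the interval lay inside a 1.5-fold change, against 40.4% of all genes. All 23 are among the 34 genes that did not pass. The CpG-ODN and saline arrays did not overlap for 13 genes (29.5%), against 32.8% of all genes.

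**Figure D1:**
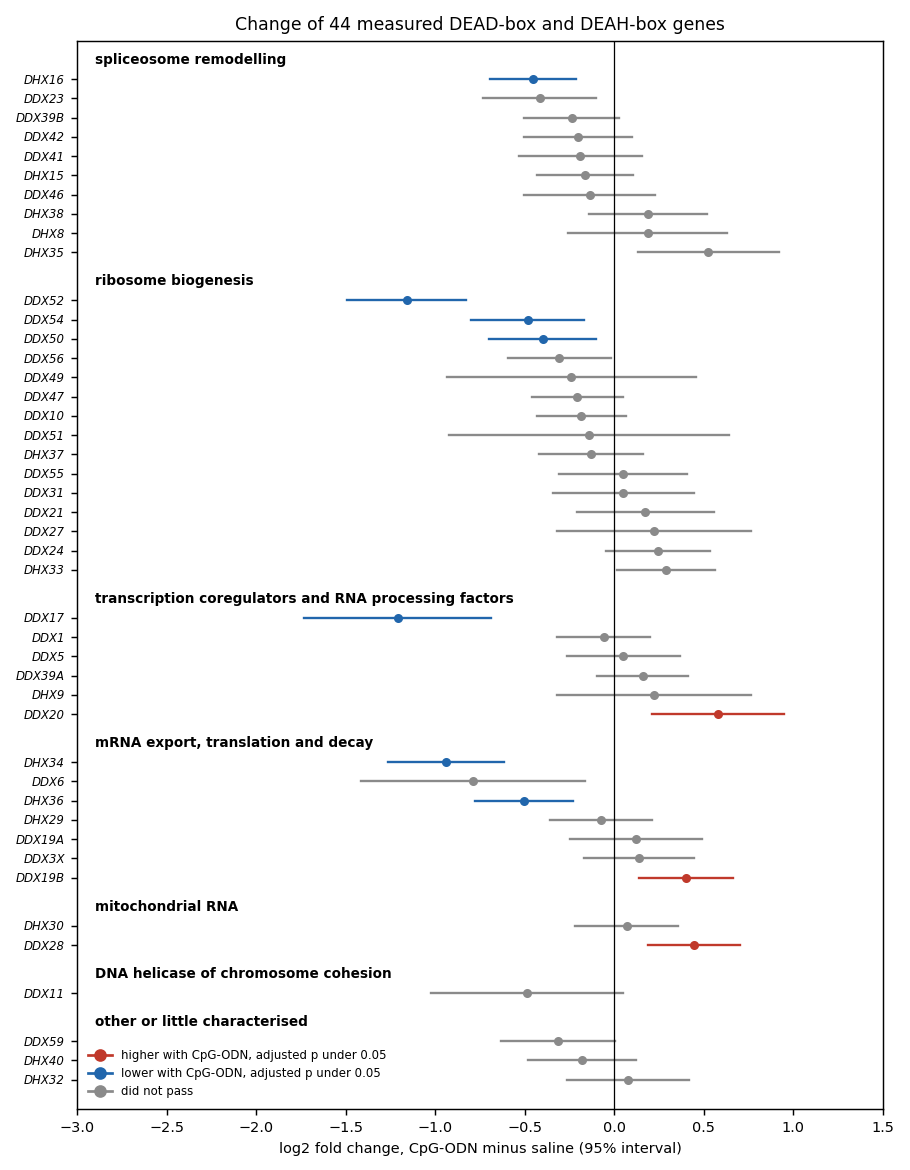
Log2 fold change (x axis, CpG-ODN minus saline) with its 95% interval for each of the 44 measured helicase genes, grouped by role. Red and blue mark the 3 higher and 7 lower genes past an adjusted p of 0.05 and grey the 34 others, most of which lie close to 0.

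Among DDX symbols 3 of 30 genes were higher and 4 lower, with a median of -0.16. Among DHX symbols 0 of 14 were higher and 3 lower, with a median of -0.0022. In all 23.3% and 21.4% of them passed, against 29.2% of all measured genes (12.9% higher and 16.3% lower). All direction counts rest on quantile normalization. Over all genes it gave 1417 higher and 1801 lower calls, while scaling to the median of all probes gave 486 higher and 1915 lower, and scaling to the median of detected probes 1829 higher and 1535 lower. Among the 44 helicase genes the 2 scalings gave 0 higher and 8 lower calls, and 4 higher and 7 lower calls. With the median of all probes DDX19B, DDX20, DDX28 and DDX50 did not pass, while DDX6 and DDX11 passed as lower. Under both scalings 0 of the 10 called helicase genes turned in direction, and 7 and 4 of the 44 genes did, none of them past the threshold.

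Ribosome assembly helicases form the largest group. Of 15 measured genes 3 fell, 0 rose and 12 did not pass, with a median of -0.14. The share called was 20%, against 29.2% of all measured genes (12.9% higher and 16.3% lower). DDX52 is the counterpart of a yeast helicase that processes the precursor of small-subunit ribosomal RNA. DDX52 had log2 signals of 10.69, 10.43, 10.21 and 10.56 on the CpG-ODN arrays, against 11.53, 11.64, 11.92 and 11.44 on the saline arrays. Every CpG-ODN array lay below every saline array, by a wide gap. DDX52 fell 2.24-fold (log2 fold change -1.16 ± 0.15, SE; adjusted p = 0.00048 by limma), the smallest p in the family. Its second kept probe fell too, by a log2 change of -0.73 (adjusted p = 0.0352 by limma), although on that probe the groups overlapped.

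DDX54, a nucleolar protein also known as a corepressor of nuclear receptors, had log2 signals of 8.08, 8.09, 8.46 and 8.32 with CpG-ODN, against 8.60, 8.80, 8.54 and 8.95 in saline. The highest CpG-ODN array stood just under the lowest saline array. The change was -0.49 ± 0.14 (SE, adjusted p = 0.0294 by limma). It was -0.32 without background correction and -0.33 in the authors' normalized values, and it passed in both. Leaving out CpG-ODN 1, CpG-ODN 2, saline 2 or saline 4 ended the call, with adjusted p from 0.0733 to 0.0778 by limma. DDX50 is the nucleolar neighbour and close relative of DDX21. DDX50 had log2 signals of 9.66, 9.62, 9.43 and 9.62 with CpG-ODN, against 10.11, 9.71, 9.93 and 10.19 in saline. The groups were separated by a narrow margin. Its change of -0.40 ± 0.13 (SE) passed by the smallest margin in the family (adjusted p = 0.0499 by limma), and the call held without saline 2 but not without any other single array, with adjusted p from 0.0742 to 0.119 by limma.

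The 12 other nucleolar helicases had log2 fold changes of -0.31 to 0.29, 6 of them above 0 and 6 below. DDX56, DDX47 and DDX10, which act on large- or small-subunit precursors, had changes of -0.31, -0.21 and -0.19. DDX56 and DDX10 did not overlap between the groups and did not pass (adjusted p = 0.107 and 0.258 by limma). DDX21, DDX24, DDX27 and DHX33 stood at 0.17, 0.24, 0.22 and 0.29. DDX51 was the least certain of the group, with a change of -0.14 and a 95% interval of -0.92 to 0.64. DDX49, DHX37, DDX55 and DDX31 stood at -0.24, -0.13, 0.048 and 0.050.

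Of 10 spliceosomal helicases 1 was lower and 0 were higher, with a median of -0.18. The share called was 10%, against 29.2% of all measured genes (12.9% higher and 16.3% lower). DHX16, which activates the assembled spliceosome just before the first catalytic step, had log2 signals of 10.23, 10.42, 10.32 and 10.41 with CpG-ODN, against 10.88, 10.74, 10.78 and 10.78 in saline. The arrays lay close together within each group and did not overlap. DHX16 fell 1.37-fold (-0.45 ± 0.11, SE; adjusted p = 0.0117 by limma).

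A pair of spliceosomal genes lay just outside the threshold, on opposite sides of 0. DDX23, which helps to hand the splice site from one small nuclear RNA to the next, had 9.19, 9.74, 9.53 and 9.75 with CpG-ODN, against 10.02, 9.92, 9.93 and 10.01 in saline. The saline arrays were tightly grouped and above all CpG-ODN arrays, CpG-ODN 1 being the lowest. The change was -0.42 ± 0.14 (SE, adjusted p = 0.0526 by limma), and it passed without CpG-ODN 4 (adjusted p = 0.0483 by limma). It also passed under 5 other settings, with adjusted p from 0.0189 to 0.0475 by limma. DHX35, a component of the catalytically active spliceosome, had 7.77, 8.33, 7.80 and 8.17 with CpG-ODN, against 7.78, 7.54, 7.12 and 7.52 in saline. The groups overlapped, through CpG-ODN 1 and saline 1. The change was 0.53 ± 0.18 (SE, adjusted p = 0.052 by limma), and it passed without CpG-ODN 1 (adjusted p = 0.0463) or without saline 1 (adjusted p = 0.0395). It also passed under 6 other settings, with adjusted p from 0.0373 to 0.0491 by limma, and its log2 change was 0.29 without background correction.

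The remaining spliceosomal helicases had small fitted changes. DHX8, DHX15 and DHX38, which drive messenger release, disassembly and the second catalytic step, stood at 0.19, -0.17 and 0.19. DDX46 and DDX42, which act with the small nuclear ribonucleoprotein that binds the branch site, stood at -0.14 and -0.21. DDX41 stood at -0.19. DDX39B, an assembly and export helicase and among the 3 brightest probes of the genes that did not pass, had 13.34, 13.39, 13.51 and 13.35 with CpG-ODN, against 13.68, 13.43, 13.79 and 13.64 in saline. The groups overlapped. Its change was -0.24, with a 95% interval of -0.50 to 0.026.

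By brightest probe after background correction, transcription coregulators and processing factors held both the largest fall and the largest rise of the family. Without background correction DDX52 (-1.07) fell more than DDX17, and DDX19B (0.37) rose more than DDX20. DDX17, which works with DDX5 in transcription, alternative splicing and microRNA processing, had log2 signals of 7.85, 7.99, 7.58 and 6.89 with CpG-ODN, against 8.70, 8.74, 8.53 and 9.19 in saline. All CpG-ODN arrays were below all saline arrays, and CpG-ODN 4 was the lowest. DDX17 fell 2.31-fold (-1.21 ± 0.24, SE; adjusted p = 0.00432 by limma). The log2 change was smaller, -0.74 without background correction and -0.75 in the table normalized by the authors, and thus under 2-fold, and it passed in both. DDX20, the helicase of the SMN complex that assembles small nuclear ribonucleoproteins, had 7.57, 7.67, 7.51 and 7.78 with CpG-ODN, against 7.39, 6.61, 7.13 and 7.09 in saline. The groups did not overlap, and saline 2 was the lowest array. DDX20 rose 1.49-fold (0.58 ± 0.17, SE; adjusted p = 0.0265 by limma). Its log2 change was 0.27 both without background correction and in the authors' normalized values, and it passed in both. The call ended without CpG-ODN 2, CpG-ODN 4 or saline 2, with adjusted p from 0.0550 to 0.0654 by limma.

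The 4 others in this group had fitted changes near 0. DDX5 had 13.46, 13.65, 13.64 and 13.16 with CpG-ODN, against 13.26, 13.55, 13.45 and 13.45 in saline. The groups overlapped, and the change was 0.050 with a 95% interval of -0.27 to 0.36. DDX1, a subunit of the transfer RNA ligase complex, had 13.07, 13.33, 13.25 and 13.20 with CpG-ODN, against 13.21, 13.39, 13.34 and 13.14 in saline. These groups overlapped too. Its change was -0.059, with a 95% interval of -0.32 to 0.20. DDX39A, an export helicase, stood at 0.16. DHX9, which unwinds RNA and RNA-DNA hybrids, stood at 0.22, with saline arrays spread from 9.37 to 10.50.

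Among helicases of export, translation and decay, 1 of 7 genes rose, 2 fell and 4 did not pass, with a median of -0.073. The share called was 42.9%, on 7 genes, against 29.2% of all measured genes (12.9% higher and 16.3% lower). DHX34 takes part in nonsense-mediated decay. DHX34 had log2 signals of 6.68, 6.66, 6.41 and 6.63 with CpG-ODN, against 7.38, 7.76, 7.27 and 7.73 in saline. The CpG-ODN arrays were tightly grouped and clearly below the saline arrays. DHX34 fell 1.92-fold (-0.94 ± 0.15, SE; adjusted p = 0.0013 by limma). For this dim probe the log2 change was -0.41 without background correction and -0.42 in the authors' normalized values, and it passed in both. DHX36, which unwinds G-quadruplexes in RNA and DNA, had 9.32, 9.49, 9.43 and 9.27 with CpG-ODN, against 9.87, 10.09, 9.85 and 9.71 in saline. The groups did not overlap. DHX36 fell 1.42-fold (-0.51 ± 0.12, SE; adjusted p = 0.0129 by limma), and its second probe fell by a log2 change of -0.67 (adjusted p = 0.00493 by limma).

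DDX19B frees exported messenger from its carriers at the nuclear pore. DDX19B had log2 signals of 11.47, 11.54, 11.23 and 11.32 with CpG-ODN, against 11.00, 10.91, 11.11 and 10.93 in saline. The groups were separated, with CpG-ODN 3 nearest to saline 3. DDX19B rose 1.32-fold (0.40 ± 0.12, SE; adjusted p = 0.0313 by limma). Its other probes rose by 0.82 (adjusted p = 0.0164 by limma) and 0.83 (adjusted p = 0.0109 by limma). The mean of its 3 probes rose by 0.69. The call of the brightest probe was lost on leaving out any 1 array except CpG-ODN 3 and saline 3, with adjusted p from 0.0504 to 0.0851 by limma.

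DDX6, which represses translation and activates decapping, was the only measured helicase gene not above background on all arrays, being above it on 3 of 4 CpG-ODN and 4 of 4 saline arrays. DDX6 had 6.69, 5.92, 6.38 and 5.16 with CpG-ODN, against 7.08, 6.83, 6.75 and 6.66 in saline. The saline arrays lay together, whereas CpG-ODN 1 stood among them and CpG-ODN 4 was the lowest array. The change of -0.79 ± 0.28 (SE) did not pass (adjusted p = 0.0617 by limma). It passed without CpG-ODN 1 (adjusted p = 0.0220 by limma) and under 4 other settings (adjusted p from 0.0107 to 0.0425 by limma). Without background correction its log2 change was -0.27. DDX3X, which aids translation of structured messengers, stood at 0.14 with a 95% interval of -0.17 to 0.44. DHX29, a scanning factor, stood at -0.073 with an interval of -0.36 to 0.21.

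In mitochondria, DDX28, a factor of RNA granules and of large-subunit assembly, had log2 signals of 8.84, 8.66, 8.77 and 8.86 with CpG-ODN, against 8.46, 8.20, 8.28 and 8.42 in saline. The CpG-ODN arrays were close together and all above the saline arrays. DDX28 rose 1.36-fold (0.44 ± 0.12, SE, adjusted p = 0.0178 by limma). Its log2 change was 0.30 both without background correction and in the authors' normalized values, and it passed in both. The call was lost without saline 2 (adjusted p = 0.0534 by limma). DHX30, found in the same granules, stood at 0.068 with a 95% interval of -0.22 to 0.35.

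The last 4 genes did not pass. DDX11, a DNA helicase of sister chromatid cohesion, stood at -0.49 with a wide interval of -1.02 to 0.050. With scaling to the median of all probes DDX11 passed as lower (-0.70, adjusted p = 0.0394 by limma). DDX59, DHX40 and DHX32, whose substrates are little known, stood at -0.31, -0.18 and 0.077.

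**Figure D2:**
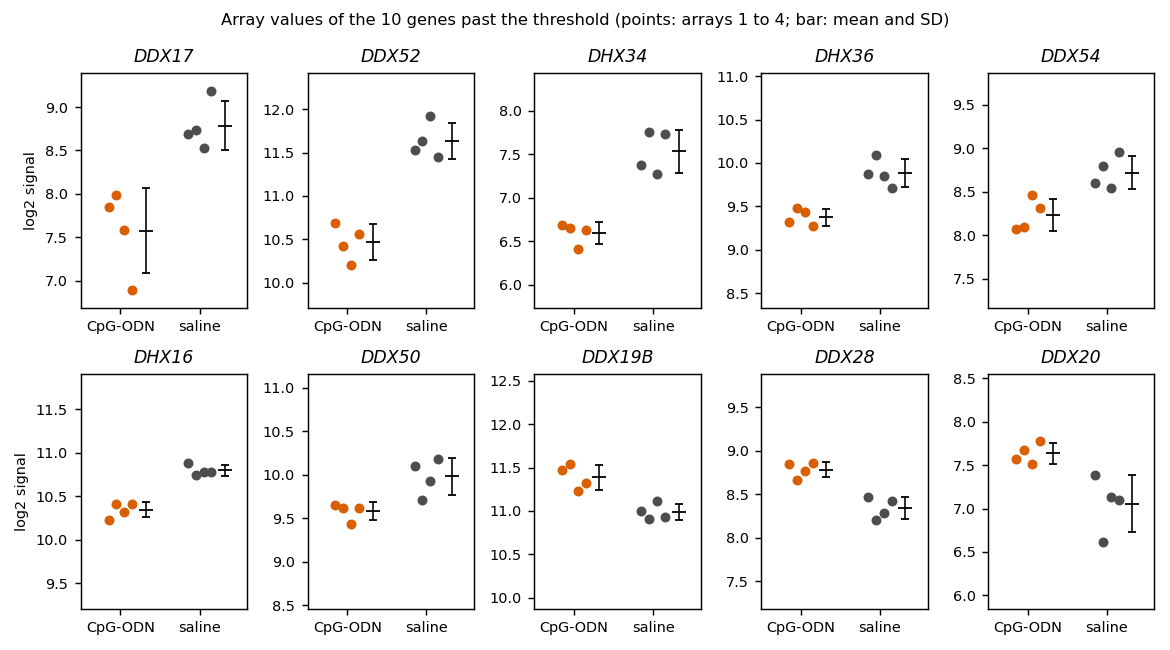
Log2 signal (y axis, same span of values in each panel) of the 10 helicase genes past an adjusted p of 0.05 on the 4 CpG-ODN arrays (orange) and the 4 saline arrays (grey), with mean and SD beside the points. The groups do not overlap in any panel, and the gap is widest for DDX17, DDX52 and DHX34.

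The sequences just before the start sites are shown for some of the called genes, so that the letters they do and do not share there can be read. RefSeq promoters on GRCh38.p14 were matched for 41 of the 44 genes (55 start sites) and for 9 of the 10 called genes. For 5 genes that fell and for DDX20, which rose, the 150 bases before the start are shown 5′ to 3′, with matches to a searched motif in capitals.
DDX17: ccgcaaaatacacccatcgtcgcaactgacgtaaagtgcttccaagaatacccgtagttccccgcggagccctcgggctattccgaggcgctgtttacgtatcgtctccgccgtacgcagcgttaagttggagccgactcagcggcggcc
DHX34: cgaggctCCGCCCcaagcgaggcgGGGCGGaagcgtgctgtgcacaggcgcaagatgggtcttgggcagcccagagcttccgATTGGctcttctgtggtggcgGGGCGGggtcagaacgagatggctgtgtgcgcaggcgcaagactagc
DDX54: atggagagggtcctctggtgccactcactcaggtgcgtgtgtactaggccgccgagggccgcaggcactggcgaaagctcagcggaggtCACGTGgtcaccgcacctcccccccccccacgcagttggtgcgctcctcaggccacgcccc
DHX16: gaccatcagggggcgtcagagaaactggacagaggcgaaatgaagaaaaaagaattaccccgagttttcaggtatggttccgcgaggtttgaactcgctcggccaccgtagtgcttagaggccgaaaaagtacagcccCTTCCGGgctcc
DDX50: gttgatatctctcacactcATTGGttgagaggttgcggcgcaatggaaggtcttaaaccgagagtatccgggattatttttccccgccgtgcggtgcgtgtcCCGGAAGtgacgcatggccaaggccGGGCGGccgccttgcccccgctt
DDX20: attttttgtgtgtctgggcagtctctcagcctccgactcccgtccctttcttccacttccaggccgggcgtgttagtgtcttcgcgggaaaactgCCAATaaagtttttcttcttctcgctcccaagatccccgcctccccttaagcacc
These are chr22:38506312-38506461 on the minus strand, chr19:47349165-47349314 on the plus strand, chr12:113185479-113185628 on the minus strand, chr6:30673007-30673156 on the minus strand, chr10:68901165-68901314 on the plus strand and chr1:111755751-111755900 on the plus strand. Letters were searched on both strands. The core site of ETS factors was searched as CCGGAAG. The E-box, bound by basic helix-loop-helix factors such as MYC, was searched as CACGTG. The GC box of SP1-like factors was searched as GGGCGG. The other searches were for the CCAAT box, spelled as its name, for the TATA box as TATAAA, and for the interferon-stimulated response element. The capitals mark an ETS core in DHX16 and DDX50, an E-box in DDX54, a CCAAT box in DHX34, DDX50 and DDX20, and GC boxes in DHX34 and DDX50, whereas the DDX17 stretch holds no match. No match shared bases with a match to another motif in these stretches.

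Over the window of 250 bases before to 50 after the start, the ETS core was present at 22 of 55 helicase start sites (40%), at 16.7% of 13101 start sites of measured genes and at 10.3% of all 35116 start sites in the table. Among genes that fell it was present at 4 of 6 start sites, among the 3 genes that rose at 1 of 5, and among genes that did not pass at 17 of 44 (38.6%). The E-box was present at 9 of 55 (16.4%), against 9.31% for measured genes and 7.26% for all start sites. GC boxes stood at 60% of helicase start sites and 65.3% of those of measured genes, against 45.0% of all. CCAAT stood at 41.8% of helicase start sites, against 35.3% for measured genes and 34.6% for all. TATAAA was found at 4 of 55 (7.27%), against 6.46% for measured genes and 11.5% for all. The interferon element was found at 1 of 55 (1.82%), against 2.82% for measured genes and 3.57% for all. A match describes these letters only.

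Genes with several probes gave a check within the array. Of the 44 genes 16 had more than 1 kept probe, and in 10 of them all kept probes had the same sign. Of these 16 genes 3 had a called probe: DDX52, DHX36 and DDX19B passed on all of their 7 kept probes, the brightest ones included. They were picked out because they passed, so their 7 probes cannot be set against the 26.6% of all kept probes that passed. The other 13 genes had no called probe. The 6 genes whose probes differed in sign were DDX31, DDX39B, DDX3X, DDX59, DHX40 and DHX9. DDX59 had the widest difference, with -0.31 (adjusted p = 0.135) by its brightest probe and 0.14 (adjusted p = 0.524) by the other, both by limma. The 4 probes of DHX9 ran from -0.034 to 0.35, none past the threshold. The 7 other called genes had 1 kept probe each.

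**Figure D3:**
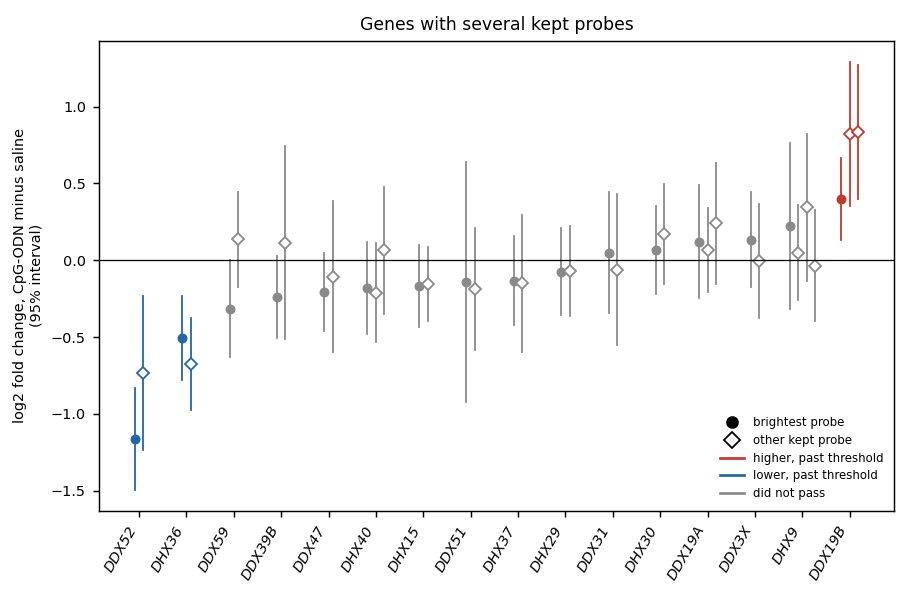
Log2 fold change (y axis, CpG-ODN minus saline) with its 95% interval for every kept probe of the 16 helicase genes with more than 1, filled circles for the brightest probe and open diamonds for the others. Probes of DDX52, DHX36 and DDX19B lie on one side of 0, and the other 13 genes hold no probe past the threshold.

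Pairs of closely related helicases were compared by the log2 ratio of their 2 signals within each array, 4 pairs in all, chosen after the values were seen, with an exact permutation test (two-sided, smallest possible p = 0.0286) adjusted over the 4 pairs. The ratio of DDX17 to DDX5 was -5.61, -5.67, -6.06 and -6.26 with CpG-ODN, against -4.56, -4.82, -4.91 and -4.27 in saline. The groups did not overlap, and the difference was -1.26 ± 0.21 (SE; exact permutation p = 0.0286, adjusted p = 0.0571). Without background correction this difference was -0.79, and it was -0.80 in the table normalized by the authors. The ratio of DDX39B to DDX39A was 0.25, 0.17, 0.23 and 0.18 with CpG-ODN, against 0.51, 0.36, 0.77 and 0.78 in saline. The groups did not overlap, and the difference was -0.40 ± 0.10 (SE; exact permutation p = 0.0286, adjusted p = 0.0571). With the mean of all kept probes of each gene the difference was -0.22, the other kept probe of DDX39B standing at 0.12. Neither gene passed singly with quantile normalization, and neither ratio passed after adjustment. With scaling to the median of detected probes DDX39A passed singly as higher (0.36, adjusted p = 0.0399 by limma). Since 4 arrays against 4 cannot go below 0.0286, no pair could pass unless at least 3 of the 4 reached that value.

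DDX19A and DDX19B lie next to each other and are near-identical in sequence, so their probes may share transcripts. The 3 probes of DDX19A stood at 0.065 to 0.24, none past the threshold, while those of DDX19B all rose. The difference of their ratio was 0.28 ± 0.13 (SE; exact permutation p = 0.0571, adjusted p = 0.0762), with overlapping groups. With the mean of all probes of each gene the difference was 0.54. DDX21 and DDX50 also lie next to each other. The ratio of DDX50 to DDX21 differed by -0.57 ± 0.26 (SE, exact permutation p = 0.0857, adjusted p = 0.0857), again with overlap. Since the pairs were chosen after the values were seen, the test cannot decide whether these neighbours differ.

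**Figure D4:**
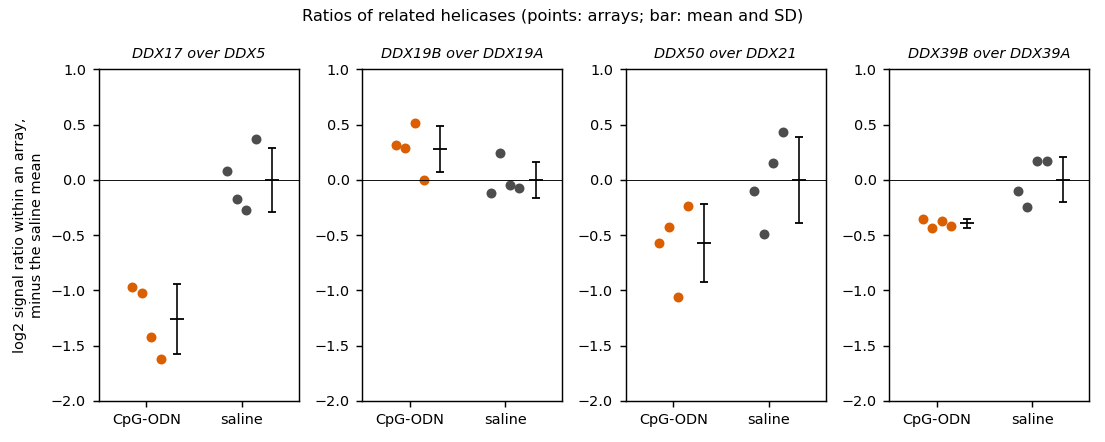
Log2 ratio of 2 related helicases within an array (y axis, with the saline mean set to 0) on the 4 CpG-ODN and the 4 saline arrays, with mean and SD. The ratios of DDX17 to DDX5 and of DDX39B to DDX39A do not overlap between the groups, and the other 2 ratios do.

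Of 8 measured RNA helicases with other symbols 1 rose and 2 fell, with a median of -0.27. In all 37.5% of this list passed, against 29.2% of all measured genes (12.9% higher and 16.3% lower). SNRNP200, the spliceosomal helicase that unwinds the small nuclear RNA duplex before activation, rose by 1.31 ± 0.16 (SE, adjusted p = 0.000367 by limma). MTREX, the nuclear exosome helicase, fell by a log2 change of -0.99 ± 0.11 (SE, adjusted p = 0.000257 by limma), and EIF4A2, a translation initiation helicase, of -0.66 ± 0.11 (SE, adjusted p = 0.00216 by limma). Antiviral helicases formed a separate list. Of the 3 that were above background in both groups IFIH1 and DDX60 fell and DHX58 did not pass. Beside these, 16.3% of all measured genes were lower. IFIH1 and DDX60 changed by -0.84 and -0.79 (adjusted p = 0.00549 and 0.00777 by limma). RIGI, the current symbol of DDX58, stayed below background on all CpG-ODN arrays and was above it on all 4 saline arrays, which alone let it through the filter, so no test is given. Its level was lower by at least 1.74-fold, the bound being the saline mean over the lowest detected signal of each CpG-ODN array.

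Partners of the helicases were read from the same fit. The G-patch proteins, which switch on DEAH-box helicases, had 4 of 10 genes higher and 0 lower, with a median of 0.044. RBM17 rose by 0.89, GPATCH2 by 0.87, GPATCH3 by 0.76 and GPKOW, which binds DHX16, by 0.44. The other kept probe of GPATCH2 stood at 0.26. Of 22 spliceosome proteins 3 rose, SF3A2 (0.58) and SLU7 (0.57) among them, and 2 fell, SF3B3 (-1.09) and PLRG1 (-0.50), with a median of 0.0047. Of 20 ribosome assembly factors 2 rose and 4 fell, with a median of -0.072. HEATR1, a factor of the early small-subunit precursor, changed by -0.85, WDR12 by -0.52, NIP7 by 0.84 and PNO1 by 0.66.

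In the SMN complex around DDX20, 1 of 7 genes rose and 3 fell, with a median of -0.17. GEMIN8 changed by -1.25 (above background on 2 of 4 CpG-ODN arrays), GEMIN6 by -0.87 and GEMIN5 by -0.68, whereas STRAP rose by 0.52. Of 12 decapping and P-body factors, which act with DDX6, 3 rose and 2 fell by the brightest probe, with a median of 0.31. CNOT1 did not pass by its brightest probe (-0.17). Its other kept probes fell past the threshold (-0.91 and -0.79, adjusted p = 0.00487 and 0.0184 by limma). The decapping enzyme gene DCP2 changed by -1.32 and EDC3 by -0.53, whereas LSM14A and PATL1, both partners of DDX6, rose by 0.65 and 0.63. Of 13 exon junction and export factors 1 rose and 3 fell, with a median of 0.12. MAGOHB rose by 2.23 (above background on 3 of 4 saline arrays), while THOC1 changed by -1.09 and GLE1, which activates DDX19B at the pore, by -0.53. Shares of called genes in these 6 partner lists ran from 22.7% for spliceosome proteins to 57.1% for the SMN complex, on 7 to 22 genes each, against 29.2% of all measured genes (12.9% higher and 16.3% lower).

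**Figure D5:**
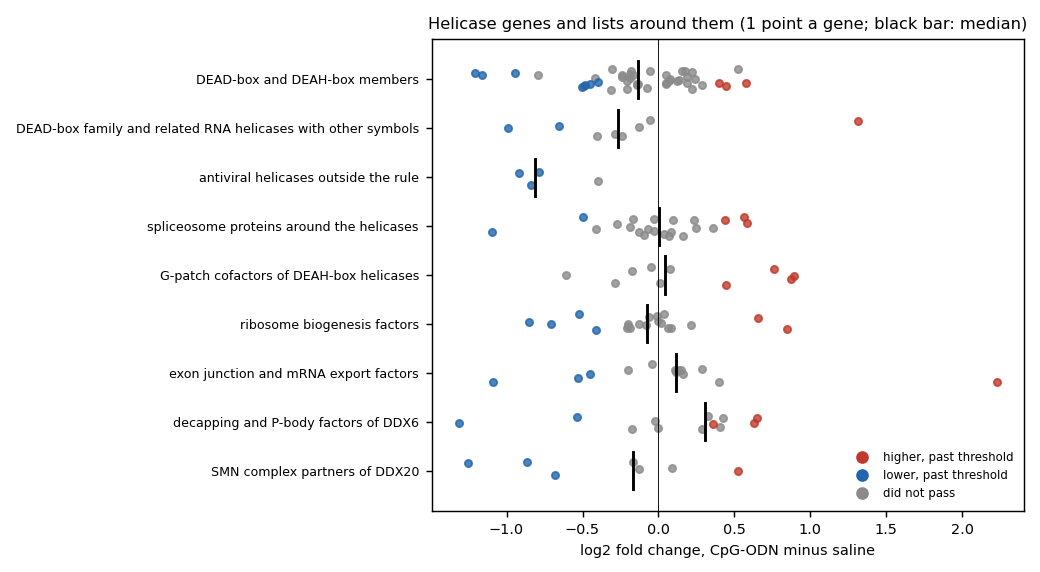
Log2 fold change (x axis, CpG-ODN minus saline) of the 44 helicase genes and of the genes in 8 lists around them, 1 point a gene, with the median of each list as a black bar. Helicase genes crowd around 0 with 10 coloured points past the threshold. The antiviral list includes RIGI, which was below background on all CpG-ODN arrays.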

How the data were processed

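Total RNA of 8 tumor samples was hybridised to 1-colour Illumina bead arrays. The deposited intensity values are average signals per probe, not normalized per the file headers and, from their floor, with no background subtracted, each beside a deposited detection p-value. The submitters' processing notes name BeadStudio without a version. The authors also deposited a table of normalized intensity, which has nearly the same distribution on every array, its method not given in the sources used here, and served as an alternative.

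Background correction and normalization used the neqc function of limma 3.58.1 in R 4.3.3 (background from the detection p-values, offset 16, quantile normalization), which gives log2 signals in which the offset understates the change of dim probes. Of 48797 probes 18184 were kept. They had 1 gene symbol in 14584 cases, several in 3 and none in 3597. Treatment was tested with lmFit and eBayes in limma (two-sided), and p-values were adjusted by Benjamini-Hochberg across the kept probes. The fit was also run on simulated arrays with independent probes, few of them changed, which does not bear on the calls given here. Members and lists were chosen with earlier results of these data known. DDX39B was dropped from the list of other helicases, since its symbol makes it a member.

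Values per array were given for the called genes, for those with an adjusted p up to 0.10 and for the 3 brightest uncalled ones. Genes whose probes differ in sign were named, and at most 4 called genes per other list. The labels give 4 mice a group without saying which array is which mouse, so p-values measure the spread between arrays, whose number limits the precision. Same-numbered arrays of the 2 groups are not said to be paired. No slide is given, so slide was not tested as a block. Alternatives were the background correction, scaling, the second table, the filter, weighting of arrays, a trended variance, a 1.2-fold test, the mean of a gene's probes, a block for the replicate number and omission of each array. Scaling on detected probes and all settings for gene pairs were added after the data were seen.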

Additional observations from a re-analysis of the deposited data

Results flagged for a closer look

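A single array stood far from the other 3 of its group for 3 of the 88 combinations of helicase gene and group examined, where chance gives about 1 in 20. The gap of that array to its nearest neighbour is given as a share of the whole range of the group. For DDX56 CpG-ODN 1 was lowest at 10.72, while the others lay between 11.08 and 11.11 (share 0.931). For DHX38 CpG-ODN 4 was highest at 9.13, above the others at 8.58 to 8.66 (share 0.858). For DDX50 CpG-ODN 3 was lowest at 9.43, below the others at 9.62 to 9.66 (share 0.839).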

How the results depend on the processing

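The falls of DDX17, DDX52 and DHX34 passed under all 20 alternatives, and those of DHX16 and DHX36 under all but the test against a 1.2-fold change. That test called 0 helicase genes higher and 3 lower, and 2004 probes in all. It called 6.82% of the helicase genes and 12.2% of all measured genes. Higher calls among helicases numbered 0 with median scaling of all probes, 1 with no filter on dim probes and 1 with a replicate block. In either direction 18.2%, 12% and 15.9% of helicase genes passed there, against 21.8%, 13.3% and 23.4% of all genes. Calls were more numerous in other settings. Without background correction, in the authors' normalized table and with a trended variance 13 helicase genes passed (4 higher, 9 lower). That is 29.5% of them, against 33.6%, 33.6% and 32.9% of all genes. With detection on all arrays or probe means 12 passed (27.9% and 27.3%), against 33.5% and 29.8% of all genes. Keeping probes detected on at least 1 array, or all probes, ended the calls of DDX19B, DDX50 and DDX54. With all probes the call of DDX20 was lost too (adjusted p = 0.05003 by limma). Leaving out each array in turn gave 0 to 3 higher genes (0 without saline 2, 1 without CpG-ODN 2 or CpG-ODN 4), 5 to 7 lower genes, medians of -0.15 to -0.064 and 3866 to 4266 called probes. On leaving out an array 13.6% to 20.5% of helicase genes passed, against 23.2% to 25.9% of all genes. The median of the 44 genes was -0.080 when a gene's probes were averaged, -0.066 with no filter and 0.020 with scaling on detected probes. Among the genes followed through every setting, signs turned for 3, none of which passed: DDX31 at -0.0050 with probe means, at -0.15 with median scaling and within -0.072 to 0.17 on leaving out an array, DDX5 within -0.0093 to 0.16 on leaving out an array, and DDX1 at 0.14 with scaling on detected probes. Same-numbered arrays did not deviate together (correlations of -0.27 to 0.087). Under the replicate block 7 genes passed instead of 10 (23.4% of all genes instead of 29.2%): the calls of DDX19B, DDX20, DDX50 and DDX54 were lost and DDX6 passed. Reading the rule as digits only would give 44 genes on the array in place of 50. Causes of these differences were not tested. Dim probes such as that of DDX6 limit precision.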
